A study of Sus scrofa with 21 samples.

Results

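Aorta removed at surgery from 1 pig was set against whole blood from 2 other pigs, in a series of 21 pig samples made to test a brush-tipped catheter (a microbrush) for collecting cells from the inside of blood vessels. The comparison used 6 of the 21 samples, chosen by their tissue labels: all 4 aorta libraries, numbered 1 to 4, and 2 of the 3 blood libraries, numbered 1 and 3. All 4 aorta libraries came from pig 237053, blood 1 from pig 243K and blood 3 from pig 248K. The labels state no strain, sex, age, genotype, drug or disease for any animal, and all 6 libraries were made from total RNA with the same extraction and library kits. No pig gave both tissues, so a difference between aorta and blood cannot be told apart from a difference between pigs. Nothing in the labels says how the 4 aorta samples were divided, so the spread among them is a spread within 1 animal and may be partly technical, and the p-values measure only the spread between these 6 samples. The remaining samples were 10 microbrush libraries, 4 libraries from a bare wire and blood 2, also from pig 243K, which was left out because it held 5633 counts in all.

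The aorta is an elastic artery. Its middle layer, the media, alternates sheets of elastin with smooth muscle cells, which make both the contractile machinery and most of the surrounding matrix. A single layer of endothelial cells lines the inside, and fibroblasts, nerves and fat lie in the outer adventitia. Blood carries red cells, whose remaining RNA is rich in globin messages, platelets, which hold RNA from megakaryocytes, and leukocytes, which are the main nucleated cells. In such bulk samples, fewer cells of a type and less RNA per cell cannot be told apart.

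Between 1603209 and 3033013 estimated counts were assigned to genes in the 4 aorta libraries, against 5301283 in blood 1 and 3224532 in blood 3. Levels are given as counts per 1000000 (CPM), scaled by the trimmed mean of M-values (TMM), a method that centres most genes on no change. The TMM factor was 0.637 in blood 1 and 1.23 in blood 3, so a gene with the same raw share in both stands higher in blood 1 than in blood 3 on the scaled level, and it lay between 0.837 and 1.25 in the aorta. Pearson correlation of log2 CPM across genes was 0.813 to 0.880 among aorta libraries and 0.863 between the blood libraries, against 0.410 to 0.531 between aorta and blood 1 and 0.568 to 0.699 between aorta and blood 3. Genes are not independent replicates, and these values are descriptions. In the raw counts, 4 haemoglobin genes were summed: HBB, HBM, HBZ and HBQ1. They took 0.00193% ± 0.00106 (SD, n = 4) of the aorta and 3.88% ± 0.265 (SD, n = 2) of the blood, where HBB alone took 3.78%. The most abundant identifier in blood, at 8.18% ± 0.454 (SD, n = 2), had no symbol and was not in the sum. Globin genes without a symbol were not counted, so the share may be less than that of all globin. For the 4 genes, every aorta library lay below both blood libraries. The exact permutation test over the 15 ways to split the 6 libraries gave a two-sided p of 0.067, the smallest it can give. Genes detected after thinning to 1000000 counts were 18845 ± 169 (SD, n = 4) in aorta and 18150 ± 969 (SD, n = 2) in blood, with p = 0.133 in the same exact test, and the difference of 695 genes fell to 9.75 without blood 1.

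Genes that define each tissue matched the labels. ELN, the elastin gene (chromosome 3, 11214194 to 11245891 in RefSeq Sscrofa11.1), stood at 922, 654, 1102 and 2027 CPM in aorta 1, 2, 3 and 4 and at 0.594 and 0 CPM in blood 1 and 3; aorta and blood values are given in this order throughout. The blood held 2 ELN counts in all, which gives a ratio of 3953 with a counting interval of 1094 to 32646. MYH11, the myosin heavy chain of smooth muscle (chromosome 3, 7002667 to 7143093), was measured at 19671, 20645, 26032 and 42501 CPM in aorta and 7.42 and 10.6 CPM in blood. For COL1A1, a chain of type I collagen (chromosome 12, 26379087 to 26397180), the levels were 1352, 1063, 1804 and 2636 CPM and 6.23 and 11.103 CPM. DCN, the small proteoglycan decorin that coats collagen fibrils (chromosome 5, 91678601 to 91713925), stood at 47.6, 29.1, 21.7 and 130.1 CPM against 0.890 and 1.26 CPM. All 4 genes were higher in every aorta library than in either blood library, with aorta 4 the highest for each.

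In the other direction, HBB, the adult beta globin gene (chromosome 9, 4800683 to 4801941), stood at 6.97, 7.68, 24.5 and 31.9 CPM in aorta against 56499 and 32284 CPM in blood. STAT4, a transcription factor of T and NK cells (chromosome 15, 95656206 to 95764099), had 0.387, 3.44, 0 and 1.45 CPM in aorta and 124 and 41.6 CPM in blood. Neither gene overlapped between tissues. Blood 1 was above blood 3 for both on the scaled level, but as a raw share the 4 haemoglobin genes summed took 3.69% of blood 1 and 4.07% of blood 3. Fitted by the quasi-likelihood test of edgeR over all 17082 genes with enough counts, the log2 fold change of aorta over blood, given here and throughout as the estimate ± its standard error, was 11.84 ± 1.19 for ELN, 11.55 ± 1.32 for MYH11, 7.62 ± 0.96 for COL1A1 and 5.66 ± 0.65 for DCN. It was -11.30 ± 0.95 for HBB and -5.71 ± 0.53 for STAT4. The Benjamini-Hochberg adjusted p of edgeR lay between 9.76e-30 (HBB) and 1.57e-13 (COL1A1) for the 6 genes. With a single blood library left, assumed to vary like the aorta libraries, ELN moved to 14.67 without blood 1 and 10.83 without blood 3, STAT4 to -4.77 without blood 1 and DCN to 4.86 without aorta 4.

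**Figure D1:**
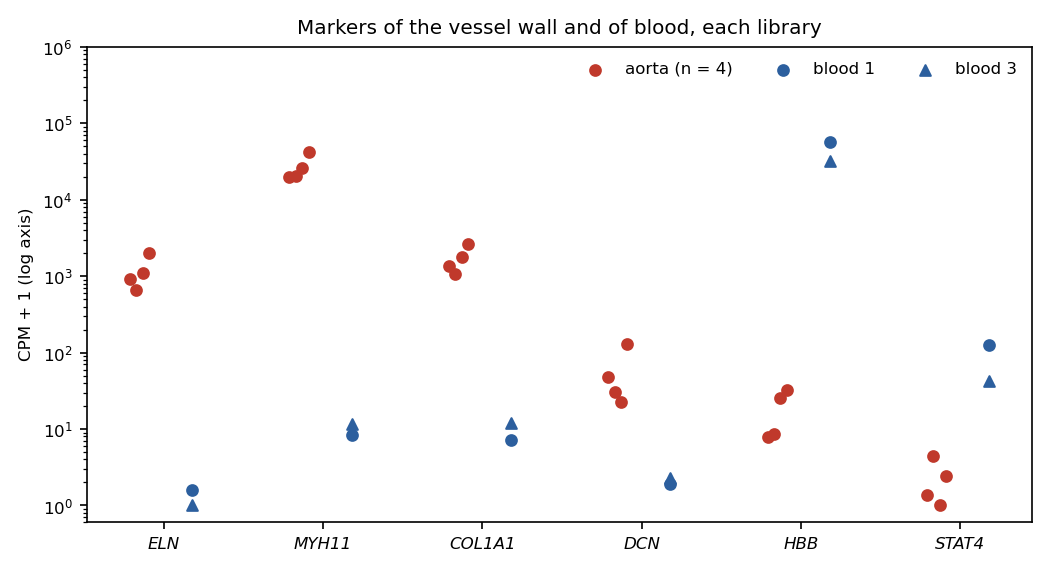
Scaled level of 6 marker genes in each library (CPM + 1, log axis), with 4 aorta points and 2 blood points per gene. Aorta lies above blood for ELN, MYH11, COL1A1 and DCN and below it for HBB and STAT4, with no overlap in any of the 6.

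Across the transcriptome, 1677 of 17082 genes (9.82%) were higher in aorta and 3198 (18.7%) were higher in blood at an adjusted p under 0.05 (edgeR), 4875 or 28.5% in either direction. Of all genes tested, 41.5% did not overlap between the tissues, 18.4% with aorta higher and 23.1% with blood higher. These shares of all genes are the background for each count of list members below. The median log2 fold change of all genes was 0.15, with 54.7% of genes above 0. A total of 36 genes had no count in either blood library and 13 had none in any aorta library. In the fits that left out 1 library, the number called moved most with the blood libraries: it was 1115 (6.3%) higher in aorta and 1373 (7.76%) higher in blood without blood 1, and 2691 (15.3%) and 4299 (24.4%) without blood 3. Of the 4875 genes called with all 6 libraries, 4874 were fitted without blood 1, and the fold change of 10 of these changed sign there.

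Smooth muscle, elastin and collagen genes led the aorta side. By the size of the fold change among genes with a mean of at least 50 CPM in the higher tissue, the first 12 were ELN, MYH11, COL5A1, SMTN, COL3A1, HSPG2, CNN1, AEBP1, LAMA4, COL6A1, COL1A1 and PAWR. SMTN encodes smoothelin, an actin-binding protein of contractile smooth muscle, and reached 1668, 1483, 3389 and 2351 CPM in aorta against 9.20 and 1.51 CPM in blood (log2 fold change 8.70 ± 1.03, adjusted p = 2.92e-15, edgeR). It was among the few of these genes for which aorta 3, not aorta 4, was highest. AEBP1, a secreted collagen-binding protein of the vessel wall, stood at 1306, 1141, 2012 and 2322 CPM against 5.04 and 9.59 CPM (7.84 ± 0.97, adjusted p = 5.35e-14, edgeR). PAWR, a regulator of cell death that is also present in smooth muscle, had 77.8, 74.2, 99.2 and 164 CPM in aorta and under 1 CPM in each blood library (7.47 ± 0.75, adjusted p = 1.14e-20, edgeR). SMTN moved to 10.43 without blood 1 and 7.89 without blood 3, and COL5A1 from 11.44 to 14.28 and 10.42.

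The contractile apparatus of smooth muscle was higher in aorta almost as a whole. Of 25 listed genes, 23 passed the filter on low counts and 21 of these rose in aorta, none in blood, with a median log2 fold change of 4.08 beside 0.15 for all genes. Their summed level was 38302, 40620.5, 52816 and 81423 CPM in aorta and 1609 and 882 CPM in blood. CNN1, the calponin of differentiated smooth muscle, stood at 377, 310.2, 304 and 898 CPM against 0.594 and 2.78 CPM (8.06 ± 0.91, adjusted p = 8.39e-17, edgeR). ITGA8, an integrin chain of vascular smooth muscle, had 912, 893, 891 and 2079.6 CPM against 5.94 and 8.07 CPM (7.40 ± 0.93, adjusted p = 1.13e-13, edgeR), and PGM5, a protein of adhesion plaques, had 129, 86.3, 99.8 and 327 CPM against 1.78 and 2.52 CPM (6.18 ± 0.72, adjusted p = 8.07e-16, edgeR). For all 3 the blood libraries held under 10 CPM and aorta 4 stood above the other aorta libraries. The 2 members that did not pass the test were MYL6, a myosin light chain present in most cells (log2 fold change 2.18), and SMTNL2 (0.46). CNN1 moved to 7.33 without blood 1 and 9.51 without blood 3.

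Elastic fibres are built from elastin laid on a scaffold of fibrillins and microfibril proteins and then cross-linked. All 17 listed genes of this system passed the filter and all 17 were higher in aorta with no overlap, with fold changes between 1.59 and 11.84 on the log2 scale and a median of 4.23. The sum over the list was 3819, 2976, 3643 and 8780.1 CPM in aorta, with aorta 4 far above the other aorta libraries, and 176 and 192 CPM in blood. LTBP2 and LTBP4, proteins that bind microfibrils and latent TGF-beta, stood at 833, 694, 769 and 2107 CPM and 409, 308, 285 and 1038 CPM in aorta. In blood LTBP2 had 6.23 and 12.9 CPM and LTBP4 2.97 and 5.05 CPM, and their log2 fold changes were 6.84 ± 0.89 and 6.97 ± 0.85 (adjusted p = 1.33e-12 and 2.92e-14, edgeR). Blood held next to none of either. MFAP4, a microfibril-associated protein, was measured at 239, 166, 185 and 637 CPM against 1.48 and 3.53 CPM (6.89 ± 0.81, adjusted p = 2.02e-15, edgeR). LOXL1, an enzyme that cross-links elastin, had 80.1, 63.3, 94.7 and 165 CPM against 3.56 and 2.78 CPM (4.98 ± 0.62, adjusted p = 5.74e-14, edgeR).

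Collagens followed the same pattern. Of 15 collagen genes that passed the filter, 14 rose in aorta, none rose in blood, and the median log2 fold change was 5.81. Only COL8A1 did not pass the test, with 0.40. COL3A1, the collagen of distensible tissues, stood at 1609.5, 1495, 1446 and 3880.2 CPM in aorta and 2.97 and 7.32 CPM in blood (8.66 ± 1.02, adjusted p = 2.85e-15, edgeR). COL1A2, the partner chain of COL1A1, had 430.1, 304, 367 and 979.6 CPM against 2.08 and 4.29 CPM (7.32 ± 0.87, adjusted p = 5.08e-15, edgeR), and COL6A1, a chain of the beaded microfibrils, 686, 527, 1175 and 1077 CPM against 2.97 and 5.05 CPM (7.73 ± 0.93, adjusted p = 6.39e-15, edgeR). The order of the aorta libraries was not the same for each: aorta 4 was highest for the type I and III chains, aorta 3 for COL6A1 and COL5A1.

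Among proteoglycans and matricellular proteins, 17 of 22 genes rose in aorta and 1 in blood, with a median of 2.98. SPARC, a collagen-binding matricellular protein, had 685, 629, 599 and 1616 CPM in aorta against 4.45 and 9.59 CPM in blood (6.96 ± 0.89, adjusted p = 3.26e-13, edgeR). MGP, the matrix protein that inhibits calcification of arteries, had 701, 571, 234 and 1472 CPM against 8.01 and 8.83 CPM (6.46 ± 0.85, adjusted p = 2.15e-12, edgeR), and the proteoglycan BGN 638, 473, 428 and 1391 CPM against 5.64 and 13.6 CPM (6.24 ± 0.84, adjusted p = 6.36e-12, edgeR). The exception was THBS1, a matricellular protein stored in platelets, at 29.8, 37.1, 23.4 and 31.4 CPM in aorta and 579.9 and 184 CPM in blood (-3.64 ± 0.51, adjusted p = 3.29e-11, edgeR). Basement membrane genes counted 10 of 12 higher in aorta and none in blood, with a median of 3.93. HSPG2, the heparan sulfate proteoglycan perlecan, stood at 1318, 982, 1590.4 and 2434 CPM against 2.97 and 8.07 CPM (8.14 ± 0.98, adjusted p = 9.83e-15, edgeR). Of the laminin chains, LAMA5 had 372, 387, 699.7 and 608 CPM against 3.26 and 3.79 CPM (7.18 ± 0.87, adjusted p = 1.05e-14, edgeR) and LAMA4, a chain of vessels and muscle, 111.5, 93.2, 111.8 and 204 CPM against 0.890 and 0.252 CPM (7.77 ± 0.79, adjusted p = 2.63e-20, edgeR). LAMA4 moved to 8.73 without blood 1 and 7.10 without blood 3.

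**Figure D2:**
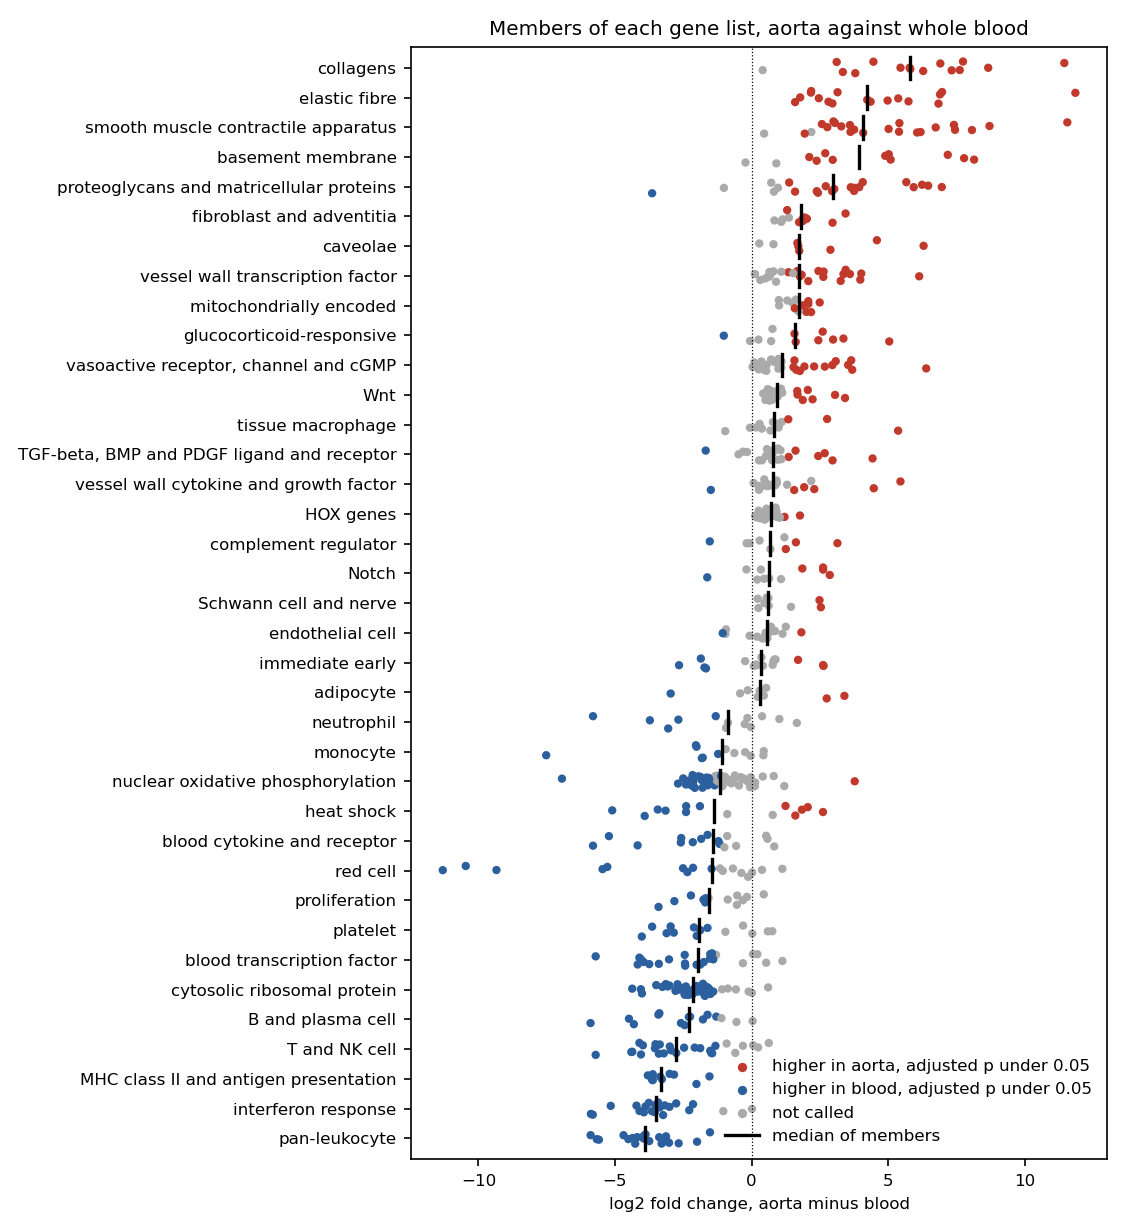
Fitted log2 fold change of aorta over blood for the members of each gene list that passed the filter on low counts, one point per gene, coloured by the direction of the call (grey: not called), with a bar at the median of the members. The contractile, elastic fibre and collagen members lie to the aorta side, the pan-leukocyte and MHC members to the blood side, and the endothelial and HOX members close to 0.

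Genes through which the wall senses and answers vasoactive signals were higher in aorta or did not pass the test. Of 27 receptors, channels and cyclic GMP pathway genes, 13 rose in aorta and none in blood, with a median of 1.09. All 27 had a fold change above 0, beside 54.7% of all genes. RGS5, a brake on G protein signalling in mural cells, stood at 1101, 1083, 545 and 2769.5 CPM in aorta and 7.42 and 25.2 CPM in blood (6.39 ± 0.89, adjusted p = 2.60e-11, edgeR), with aorta 3 lowest and aorta 4 highest. KCNMB1, the beta subunit of the large-conductance potassium channel of smooth muscle, had 56.5, 47.1, 55.9 and 129 CPM against 5.64 and 5.80 CPM (3.64 ± 0.53, adjusted p = 2.29e-10, edgeR). PRKG1, the kinase that relaxes smooth muscle in response to cyclic GMP, had 125, 112.8, 105.5 and 203 CPM against 10.7 and 12.9 CPM (3.53 ± 0.59, adjusted p = 3.97e-08, edgeR). The natriuretic peptide receptor NPR1 and the potassium channel regulator ABCC9 also rose, by 2.95 and 2.68 on the log2 scale (adjusted p = 1.50e-07 and 1.20e-06, edgeR). Caveolae are membrane pits that hold signalling proteins in muscle, endothelium and fat, and 6 of their 8 genes rose in aorta, none in blood, falling to 3 without blood 1. CAVIN3 stood at 169.9, 143, 288 and 303 CPM against 2.37 and 3.28 CPM (6.29 ± 0.75, adjusted p = 6.44e-15, edgeR) and CAVIN1 at 464, 483, 541 and 980.1 CPM against 19.6 and 31.8 CPM (4.58 ± 0.75, adjusted p = 2.74e-08, edgeR). CAV1, the main structural caveolin, rose by 1.67 and CAV2 by 1.74 (adjusted p = 0.00609 and 0.00554, edgeR), and neither passed without blood 1 (1.20 and 1.18, adjusted p = 0.172 and 0.206, edgeR), nor did PACSIN3 (1.18, adjusted p = 0.105, edgeR).

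Ligands and receptors of the main wall signalling pathways changed in part. Of 22 TGF-beta, BMP and PDGF genes, 6 rose in aorta and 1 in blood, beside 9.82% and 18.7% of all genes, with a median of 0.78. The count in aorta was 4 without blood 1 (median 0.55) and 11 without blood 3 (median 1.44). The receptor PDGFRB, which marks smooth muscle and pericytes, had 108.8, 96.4, 127 and 178 CPM in aorta against 6.53 and 5.30 CPM in blood (4.42 ± 0.61, adjusted p = 2.85e-11, edgeR). Its relative PDGFRA, a fibroblast receptor, rose by 2.96 (adjusted p = 6.89e-05, edgeR), from 18.6, 13.8, 13.1 and 28.5 CPM against 2.67 and 2.02 CPM. The ligand TGFB1 was the member higher in blood, at 64.6, 47.1, 57.02 and 56.6 CPM in aorta and 243 and 119.1 CPM in blood (-1.68 ± 0.46, adjusted p = 0.00179, edgeR), a call lost without blood 1 (-1.13, adjusted p = 0.0515, edgeR). In the Notch pathway 4 of 11 genes rose in aorta and 1 in blood, and 2 and none did so without blood 1. The ligand JAG1 stood at 212, 184, 248 and 261 CPM against 23.1 and 39.1 CPM (2.86 ± 0.61, adjusted p = 2.70e-05, edgeR), and the target gene HEY2 at 53.8, 58.5, 41.6 and 103.95 CPM against 6.23 and 14.6 CPM (2.61 ± 0.49, adjusted p = 1.78e-06, edgeR).

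Receptors of the Notch family differed in direction. NOTCH3, the receptor of mural cells, had 131, 126, 125 and 227 CPM in aorta and 26.1 and 58.04 CPM in blood (1.85 ± 0.54, adjusted p = 0.00355, edgeR), whereas NOTCH2 had 159, 127, 120.9 and 259 CPM and 720.2 and 307 CPM (-1.63 ± 0.54, adjusted p = 0.0116, edgeR). Neither passed without blood 1 (1.34 and -0.94, adjusted p = 0.0987 and 0.276, edgeR), and NOTCH2 also lost its call without aorta 1, 2 or 3 (adjusted p = 0.0709, 0.0765 and 0.0624, edgeR). The 20 Wnt genes all had a fold change above 0, beside 54.7% of all genes, and 7 passed the test, with a median of 0.92. Without blood 1 the count was 4 (median 0.52) and without blood 3 it was 11 (median 1.56). The secreted inhibitor FRZB was measured at 51.9, 47.9, 38.8 and 131 CPM against 3.56 and 8.83 CPM (3.42 ± 0.52, adjusted p = 2.10e-09, edgeR), the secreted protein DKK3 at 40.3, 38.7, 19.96 and 84.1 CPM against 3.56 and 7.32 CPM (3.05 ± 0.54, adjusted p = 2.64e-07, edgeR). The receptors ROR2 and FZD1 rose by 2.23 and 2.05 (adjusted p = 1.38e-04 and 3.00e-04, edgeR). Of 22 cytokines and growth factors of the wall, 5 rose in aorta and 1 in blood, beside 9.82% and 18.7% of all genes. IGFBP7, a secreted binding protein of insulin-like growth factors, stood at 406, 487, 455 and 925 CPM against 11.9 and 14.1 CPM (5.44 ± 0.79, adjusted p = 1.79e-10, edgeR), and GAS6, a ligand of the TAM receptors, at 51.9, 53.8, 96.4 and 142 CPM against 4.15 and 3.53 CPM (4.47 ± 0.58, adjusted p = 7.40e-13, edgeR). ANGPT2, an endothelial ligand, was the member higher in blood (-1.49 ± 0.41, adjusted p = 0.00171, edgeR), a call lost without blood 1 (-0.94, adjusted p = 0.193, edgeR).

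Transcription factors mostly followed the tissue for which they were listed. Of 26 factors known from the vessel wall, 15 rose in aorta and none in blood. Of 24 known from blood, 18 rose in blood and none in aorta. Among all genes, 9.82% were higher in aorta and 18.7% in blood. Both lists were chosen by tissue, with earlier results of these data known, so these counts are a description. MYOCD, the coactivator that turns on contractile genes with serum response factor, had 59.2, 32.8, 74.7 and 102.02 CPM in aorta against 6.23 and 4.79 CPM in blood (3.60 ± 0.53, adjusted p = 4.98e-10, edgeR). PRDM6, a smooth muscle repressor, had 29.4, 26.2, 81.5 and 68.7 CPM against 1.78 and 4.54 CPM (3.97 ± 0.57, adjusted p = 1.23e-10, edgeR), and FOXC2, a factor of vessel development, 37.9, 24.1, 72.4 and 79.8 CPM against 1.48 and 8.07 CPM (3.44 ± 0.54, adjusted p = 5.07e-09, edgeR). For PRDM6 and FOXC2, aorta 3 and aorta 4 stood above aorta 1 and aorta 2. TEAD3, a DNA-binding partner of the Hippo pathway, had 32.1, 22.2, 35.9 and 36.3 CPM in aorta and 3 counts in blood in all, a ratio of 73.2 with a counting interval of 24.8 to 357. WWTR1, the coactivator that TEAD factors bind, rose by 4.01 (adjusted p = 3.43e-09, edgeR). On the blood side, IKZF1, a master regulator of lymphocytes, had 27.5, 12.98, 15.97 and 20.3 CPM against 403 and 193 CPM (-3.95 ± 0.49, adjusted p = 8.61e-14, edgeR), and SPI1, the myeloid factor PU.1, 6.97, 3.97, 6.84 and 12.6 CPM against 138 and 62.6 CPM (-3.75 ± 0.44, adjusted p = 2.38e-15, edgeR). LEF1 and BCL11B, both factors of T cells, changed by -4.11 and -3.40 (adjusted p = 5.37e-13 and 5.37e-13, edgeR).

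Endothelial genes mostly did not pass the test. Of 17 that passed the filter, 1 rose in aorta and 1 in blood, beside 9.82% and 18.7% of all genes. The median was 0.58, and the summed level was 504, 491, 417 and 404 CPM in aorta against 409 and 438 CPM in blood. TIE1, a receptor of endothelial cells, was the member higher in aorta, at 15.1, 7.42, 15.4 and 16.9 CPM against 3.86 and 3.79 CPM (1.82 ± 0.65, adjusted p = 0.0203, edgeR). PLVAP, a protein of endothelial diaphragms, was the member higher in blood, at 42.97, 36.3, 21.7 and 34.8 CPM against 85.5 and 56.8 CPM (-1.06 ± 0.41, adjusted p = 0.0381, edgeR). PECAM1, which platelets and leukocytes also carry, had 50.3, 59.6, 33.1 and 51.7 CPM against 121.7 and 68.4 CPM and did not pass (-0.96 ± 0.43, adjusted p = 0.0827, edgeR). PLVAP lost its call without any 1 of the aorta libraries and without blood 1 (-0.78, adjusted p = 0.322, edgeR). TIE1 lost its call without aorta 1, aorta 3, blood 1 or blood 3 (adjusted p = 0.0599, 0.0608, 0.120 and 0.0546, edgeR). The median of the list was 1.25 without blood 3 and 0.01 without blood 1.

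Fibroblasts and nerves lie in the outer wall. Of 12 fibroblast and adventitia genes, 8 were higher in aorta and none in blood, with a median of 1.80. All 12 had a fold change above 0, beside 54.7% of all genes. SFRP1, a secreted Wnt modulator, stood at 128, 97.7, 131 and 242 CPM against 13.9 and 13.6 CPM (3.43 ± 0.59, adjusted p = 1.19e-07, edgeR). DPT, the adventitial matrix protein dermatopontin, had 61.5, 37.6, 37.6 and 110.2 CPM against 9.50 and 23.7 CPM (1.88 ± 0.47, adjusted p = 4.61e-04, edgeR) and did not pass without blood 1 (1.32, adjusted p = 0.0516, edgeR). The count for this list fell to 5 without aorta 4, where 8.85% of all genes were higher in aorta, and to 5 without blood 1. Among 9 Schwann cell and nerve genes NCAM1 and PMP22 passed, beside 9.82% of all genes higher in aorta. NCAM1 stood at 120.4, 110.5, 120.9 and 199 CPM against 15.1 and 32.3 CPM (2.53 ± 0.55, adjusted p = 4.63e-05, edgeR). Adhesion protein NCAM1 is also present in NK cells and muscle, and the Schwann cell factor SOX10 did not pass (0.62 ± 0.45, adjusted p = 0.317, edgeR).

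Among 9 adipocyte genes, PLIN4, a lipid droplet protein, and FABP4, a fatty acid carrier, rose in aorta, beside 9.82% of all genes. PLIN4 stood at 131, 94.03, 137 and 256 CPM against 11.9 and 17.4 CPM (3.39 ± 0.59, adjusted p = 1.84e-07, edgeR), whereas FABP4 stayed under 10 CPM in every library. FABP4 did not pass without blood 1 or blood 3 (adjusted p = 0.275 and 0.155, edgeR), and without aorta 3 or aorta 4 it fell under the filter on low counts. CFD, adipsin, which monocytes also make, was higher in blood (-2.96 ± 0.55, adjusted p = 8.34e-07, edgeR). Of 14 tissue macrophage genes, 3 rose in aorta (APOE, FOLR2 and MERTK), beside 9.82% of all genes. APOE, a lipid carrier also made by smooth muscle, had 147, 131, 66.1 and 307 CPM against 3.26 and 4.54 CPM (5.36 ± 0.68, adjusted p = 2.07e-13, edgeR). The complement component C1QB did not pass (1.10 ± 0.47, adjusted p = 0.0630, edgeR). The count of the macrophage list was 1 without aorta 4, where 8.85% of all genes were higher in aorta. Its median was 1.31 without blood 3. MERTK lost its call without aorta 1, 3 or 4 and FOLR2 without aorta 4 (adjusted p = 0.0638, 0.141, 0.120 and 0.0727, edgeR). Without blood 1 the list's count fell to 1, with FOLR2 at 2.40 and MERTK at 1.14 (adjusted p = 0.188 and 0.265, edgeR). None of 3 mast cell genes and none of 4 eosinophil and basophil genes passed in either direction, and their smallest adjusted p was 0.138 (edgeR).

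Genes that neither tissue is known for also had small positive fold changes. Of 21 genes of other organs (liver, brain, pancreas and the like, listed after values had been seen), 18 had a fold change above 0, beside 54.7% of all genes, the median was 0.57 and only F9 passed. Without blood 1 the median was 0.25 and none passed, and without blood 3 it was 1.02 and 4 passed. Their summed level was 415, 368, 427 and 275 CPM in aorta and 166 and 315 CPM in blood, with blood 1 lowest. HOX genes, which hold a position code along the body axis, were similar in size: all 26 had a fold change above 0, with a median of 0.71. Of the 26, 2 passed the test as higher in aorta, beside 9.82% of all genes. HOXA3 had 61.5, 52.7, 66.1 and 66.7 CPM against 14.5 and 38.9 CPM (1.20 ± 0.45, adjusted p = 0.0287, edgeR) and HOXA2 13.5, 11.7, 18.8 and 16.9 CPM against 0.594 and 8.07 CPM (1.77 ± 0.62, adjusted p = 0.0185, edgeR). Blood 3 lay above blood 1 for all 26. HOXA2 and HOXA3 fell to 0.85 and 0.62 without blood 1 and rose to 4.55 and 2.06 without blood 3. HOXA3 lost its call without aorta 1 or aorta 3 and HOXA2 without aorta 3 (adjusted p = 0.0790, 0.0880 and 0.0726, edgeR). What set the small positive changes of the HOX, endothelial and other-organ genes was not tested.

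Globin, haem and leukocyte genes were among the leaders on the blood side. The first 12 by fold change were HBB, EAF2, EIF1AY, HBM, SPINK4, ALAS2, LYZ, ATP5IF1, HMMR, ARHGAP45, BANK1 and PTPRC. EAF2, a transcription elongation factor, had no count in any aorta library and 100.3 and 29.3 CPM in blood, so that aorta was at least 220-fold lower when 3 counts, summed over its libraries, were taken as the floor. SPINK4, a secreted protease inhibitor, likewise had no aorta count, with 84.3 and 27.5 CPM in blood and a bound of at least 190-fold lower. HMMR, a hyaluronan receptor of dividing cells, stood at 5.42, 3.97, 16.5 and 8.22 CPM in aorta and 1346 and 432 CPM in blood (-6.74 ± 0.63, adjusted p = 3.84e-24, edgeR). ARHGAP45, a GTPase-activating protein of haematopoietic cells, had 6.58, 4.77, 3.99 and 9.19 CPM against 611 and 279.6 CPM (-6.18 ± 0.57, adjusted p = 7.87e-25, edgeR). HMMR moved to -5.77 without blood 1 and -7.37 without blood 3.

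Red cell genes ranged from very large differences to none that passed. The log2 fold changes of the members called ran from -1.46 to -11.30. Of 17 members 9 were higher in blood, none in aorta, and the summed level was 452, 444, 444 and 396 CPM in aorta against 65988 and 36481 CPM in blood. HBM, a globin of the alpha cluster, had 0, 0.530, 0 and 2.90 CPM in aorta and 1592 and 814 CPM in blood (-10.46 ± 0.78, adjusted p = 3.34e-37, edgeR). ALAS2, which starts haem synthesis in maturing red cells, had 2.32, 1.85, 5.70 and 3.38 CPM against 3002 and 1149 CPM (-9.34 ± 0.75, adjusted p = 7.27e-32, edgeR). Globin genes have close relatives, so reads may be divided among them, but both genes were near 0 in every aorta library. EPB41, protein 4.1 of the red cell skeleton, stood at 59.6, 65.95, 51.9 and 97.7 CPM against 3827 and 1529 CPM (-5.28 ± 0.64, adjusted p = 2.08e-14, edgeR), and DMTN, another skeletal protein, at 10.8, 5.03, 2.85 and 4.35 CPM against 334 and 185 CPM (-5.46 ± 0.51, adjusted p = 5.34e-24, edgeR). Among other genes of the membrane skeleton, ANK1 (ankyrin), SPTB (beta spectrin) and ADD2 (adducin) did not pass. Their values were 0.38, 0.02 and -0.31 (adjusted p = 0.576, 0.982 and 0.768, edgeR). HBM moved to -12.08 without aorta 4 and ALAS2 to -8.55 without blood 1.

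Platelets carry RNA from their parent megakaryocytes. Platelet genes were higher in blood for 9 of 14 members, with a median of -1.95. F13A1, the coagulation factor XIII chain of platelets and monocytes, had 27.9, 35.5, 18.8 and 14.99 CPM in aorta against 620.2 and 176 CPM in blood (-4.02 ± 0.51, adjusted p = 3.90e-13, edgeR). TUBB1, the tubulin of the platelet marginal band, had 30.6, 32.6, 24.5 and 10.6 CPM against 292 and 95.4 CPM (-2.97 ± 0.45, adjusted p = 1.90e-09, edgeR), and the platelet signalling protein PLEK 41.8, 47.9, 34.8 and 29.5 CPM against 466 and 203 CPM (-3.11 ± 0.50, adjusted p = 8.28e-09, edgeR). Blood 1 exceeded blood 3 for 13 of the 14 on the scaled level, and the count fell to 5 without blood 1. The summed platelet level was 2408 and 809 CPM in the 2 blood libraries and 227, 259.8, 186 and 174 CPM in aorta.

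**Figure D3:**
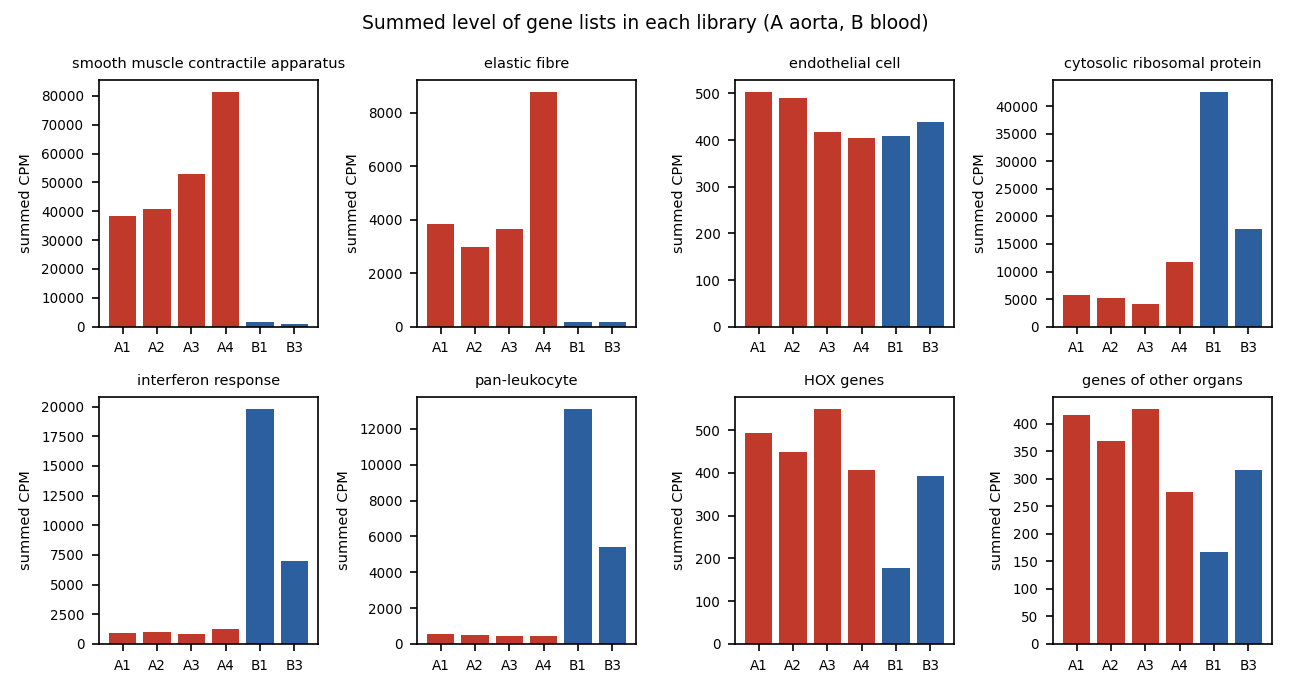
Summed scaled level (CPM, linear axis from 0) of 8 gene lists, one bar per library, with aorta 1 to 4 in red and blood 1 and 3 in blue. The muscle and elastic fibre sums are high in aorta only, the ribosomal, interferon and pan-leukocyte sums are highest in blood 1, and the endothelial sums overlap.

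Genes common to all leukocytes were uniform: all 20 of 20 were higher in blood with no overlap, with a median of -3.91. PTPRC, the CD45 phosphatase of leukocytes, stood at 43.7, 81.6, 53.03 and 57.1 CPM in aorta and 5143 and 1871 CPM in blood (-5.89 ± 0.67, adjusted p = 2.09e-16, edgeR). LAPTM5, a lysosomal protein of leukocytes, had 16.3, 13.2, 5.70 and 7.25 CPM against 716 and 328 CPM (-5.59 ± 0.56, adjusted p = 9.14e-21, edgeR), and the adaptor LCP2 9.29, 5.56, 4.56 and 5.80 CPM against 454 and 195 CPM (-5.67 ± 0.53, adjusted p = 5.99e-24, edgeR). Blood 1 lay above blood 3 for all 20 genes on the scaled level. Of 27 T and NK cell genes, 21 rose in blood and none in aorta, with a median of -2.76. CD2, an adhesion receptor of T and NK cells, had 17.8, 36.3, 15.4 and 14.02 CPM against 643 and 232 CPM (-4.37 ± 0.53, adjusted p = 9.74e-15, edgeR), and CD3D, a chain of the T cell receptor complex, 8.52, 8.21, 5.70 and 6.29 CPM against 219 and 90.8 CPM (-4.40 ± 0.45, adjusted p = 2.81e-20, edgeR). PTPRC moved to -5.03 without blood 1.

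B and plasma cell genes rose in blood for 12 of 15 members. MS4A1, the surface protein CD20 of B cells, stood at 5.03, 9.80, 9.69 and 4.35 CPM in aorta and 242 and 86.3 CPM in blood (-4.49 ± 0.46, adjusted p = 1.63e-20, edgeR), and BANK1, a B cell scaffold, at 1.16, 1.06, 1.14 and 3.87 CPM and 145 and 65.6 CPM (-5.90 ± 0.51, adjusted p = 3.53e-28, edgeR). Myeloid genes were less uniform, with 5 of 13 neutrophil genes (3 without blood 1) and 6 of 12 monocyte genes higher in blood. CSF3R, the receptor for the growth factor of neutrophils, had 1.94, 2.91, 11.4 and 2.42 CPM against 344 and 152 CPM (-5.81 ± 0.52, adjusted p = 3.35e-26, edgeR). S100A8, an abundant protein of neutrophils, had 0, 3.97, 3.42 and 1.45 CPM in aorta and 23.1 and 6.31 CPM in blood (-2.68 ± 0.66, adjusted p = 3.33e-04, edgeR), and its call was lost without blood 1 (-1.51, adjusted p = 0.465, edgeR). LYZ, the lysozyme of monocytes and granulocytes, held 3 aorta counts in all against 103.3 and 23.97 CPM in blood, a ratio of 0.00488 with a counting interval of 0.00100 to 0.0143. It moved to -6.13 without blood 1 and -8.23 without blood 3.

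Antigen presentation genes were higher in blood for all 10 members that passed the filter, with a median of -3.32. TAP1, the peptide transporter for MHC class I, had 15.9, 12.98, 14.8 and 22.2 CPM in aorta and 291 and 113.8 CPM in blood (-3.62 ± 0.46, adjusted p = 2.87e-13, edgeR), and SLA-DQB1, a class II chain of the pig, 18.97, 6.09, 3.99 and 17.9 CPM and 214 and 75.7 CPM (-3.62 ± 0.43, adjusted p = 8.36e-15, edgeR). MHC genes belong to a family of similar and variable copies, so the division of reads among them is uncertain. Interferon response genes rose in blood for 19 of 21 members, none in aorta, with a median of -3.52. IFIT1, an antiviral RNA-binding protein, stood at 28.6, 46.4, 44.5 and 44.00 CPM against 3501 and 1104 CPM (-5.81 ± 0.65, adjusted p = 5.39e-17, edgeR), ISG15, a ubiquitin-like modifier, at 38.3, 19.1, 22.2 and 29.01 CPM against 597 and 206 CPM (-3.88 ± 0.51, adjusted p = 2.40e-12, edgeR). IRF7, the factor that amplifies the interferon response, had 1.16, 5.56, 0 and 4.84 CPM against 248 and 123.1 CPM (-5.88 ± 0.50, adjusted p = 3.46e-29, edgeR). Their summed level was 19803 and 6961 CPM in blood 1 and 3 against 922, 1032, 857 and 1296 CPM in aorta. Of 16 blood cytokines and receptors, 10 rose in blood, among them the chemokine CCL5 (-5.22 ± 0.50, adjusted p = 4.82e-23, edgeR) and the receptor chain IL27RA (-4.17 ± 0.44, adjusted p = 7.05e-19, edgeR).

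Glucocorticoid-responsive genes were mostly higher in aorta: 7 of 12 rose there, 1 rose in blood, and the median was 1.59. ZBTB16, a zinc finger factor induced by steroids, had 496, 464, 748 and 748 CPM in aorta against 16.9 and 20.4 CPM in blood (5.04 ± 0.77, adjusted p = 2.26e-09, edgeR). PER1, a clock gene with a steroid-responsive promoter, had 271, 231, 405 and 343 CPM against 42.4 and 60.6 CPM (2.60 ± 0.63, adjusted p = 2.55e-04, edgeR), and KLF15, a factor also present in muscle, 48.8, 41.8, 56.5 and 79.8 CPM against 5.64 and 8.58 CPM (2.98 ± 0.52, adjusted p = 1.50e-07, edgeR). All of the aorta libraries exceeded both blood libraries for these 3 genes. NFKBIA, an inhibitor of NF-kappaB, was higher in blood at the edge of the threshold (-1.02 ± 0.41, adjusted p = 0.0492, edgeR) and gave -0.32 without blood 1 (adjusted p = 0.864, edgeR). Its call was also lost without aorta 1, 2 or 3 (adjusted p = 0.192, 0.187 and 0.0758, edgeR).

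Immediate early genes, which switch on within minutes of a stimulus, counted 3 of 17 higher in aorta and 4 in blood, beside 9.82% and 18.7% of all genes. JUN, a subunit of the AP-1 factor, stood at 160.3, 124, 153 and 221 CPM against 28.5 and 24.7 CPM (2.63 ± 0.57, adjusted p = 4.22e-05, edgeR), and EGR1 at 114.6, 75.5, 85.5 and 159.6 CPM against 15.7 and 19.7 CPM (2.61 ± 0.53, adjusted p = 1.07e-05, edgeR). ZFP36, a protein that destabilises cytokine messages, had 69.3, 24.1, 25.1 and 86.1 CPM against 233 and 138 CPM (-1.86 ± 0.46, adjusted p = 4.39e-04, edgeR), so that it lay on the blood side together with IER2, IER5 and ATF3. FOSL2, the third on the aorta side, did not pass without aorta 1 (1.70, adjusted p = 0.0510, edgeR).

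Heat shock genes divided by family. Small heat shock proteins and their partners, HSPB1, HSPB6, HSPB8, CRYAB and BAG3, were the 5 of 14 genes higher in aorta. The general chaperones HSPA8, HSPH1, HSP90AB1, DNAJA1, HSPE1, HSPD1 and CHORDC1 were the 7 higher in blood. HSPB6, a small heat shock protein of muscle, had 134, 87.9, 38.8 and 192 CPM in aorta and 28.2 and 35.1 CPM in blood (1.84 ± 0.52, adjusted p = 0.00222, edgeR), and CRYAB 20.5, 12.4, 20.5 and 36.7 CPM and 5.34 and 2.02 CPM (2.61 ± 0.61, adjusted p = 1.51e-04, edgeR). DNAJA1, a cochaperone of HSP70, had 18.97, 33.6, 15.4 and 39.6 CPM against 1389 and 469.9 CPM (-5.10 ± 0.59, adjusted p = 5.73e-16, edgeR), and HSPA8, the constitutive HSP70, 78.2, 78.1, 71.8 and 108.8 CPM against 1087 and 409.5 CPM (-3.15 ± 0.55, adjusted p = 1.84e-07, edgeR). HSPB8 did not pass without blood 1 (0.58, adjusted p = 0.604, edgeR), nor without aorta 1, 2 or 4 (adjusted p = 0.0694, 0.0645 and 0.0506, edgeR).

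Complement genes counted 3 of 9 higher in aorta (C4A, SERPING1 and CFP) and 1 in blood (C2), beside 9.82% and 18.7% of all genes. C4A, a component of the classical pathway, had 148, 82.4, 153 and 299 CPM against 11.3 and 27.3 CPM (3.14 ± 0.59, adjusted p = 1.63e-06, edgeR), and SERPING1, the C1 inhibitor, 116.9, 90.6, 73.6 and 214 CPM against 43.9 and 36.6 CPM (1.62 ± 0.52, adjusted p = 0.00892, edgeR). SERPING1 did not pass without aorta 4 (1.21, adjusted p = 0.0529, edgeR) and C2 gave -0.48 without blood 1 and lost its call without aorta 1 or aorta 3 as well (adjusted p = 0.0852 and 0.0769, edgeR). CFP lost its call without aorta 1, 2 or 3 or blood 1 (adjusted p = 0.111, 0.0710, 0.0651 and 0.275, edgeR). Proliferation genes rose in blood for 6 of 13 members, none in aorta. CENPE, a kinetochore motor, stood at 8.52, 22.2, 37.1 and 14.99 CPM in aorta and 336 and 101.2 CPM in blood (-3.41 ± 0.47, adjusted p = 1.30e-11, edgeR), BUB1B, a spindle checkpoint kinase, at 17.8, 19.1, 18.2 and 22.7 CPM and 198 and 79.2 CPM (-2.83 ± 0.43, adjusted p = 1.18e-09, edgeR). The calls of TPX2 and TYMS were lost without blood 1 (-1.17 and -1.25, adjusted p = 0.0689 and 0.208, edgeR).

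Cytosolic ribosomes make the proteins encoded in the nucleus. Of 49 cytosolic ribosomal protein genes, 43 were higher in blood and none in aorta, with a median of -2.14, and the count fell to 27 without blood 1. RPS24 stood at 159, 159, 122.6 and 211 CPM in aorta and 4849 and 1896 CPM in blood (-4.37 ± 0.64, adjusted p = 2.17e-10, edgeR), and RPL37 at 96.4, 99.6, 26.8 and 183 CPM and 2349 and 931 CPM (-4.01 ± 0.60, adjusted p = 6.11e-10, edgeR). Ribosomal protein genes have many processed pseudogenes, which may share their reads, so single members are uncertain. Within the aorta these genes also varied together: aorta 4 was highest for 45 of 49 and aorta 3 lowest for 37. Of 60 nuclear genes of oxidative phosphorylation, 28 rose in blood and 1 in aorta, with a median of -1.17, and the blood count rested on blood 1. Without that library it was 5, beside 7.76% of all genes, with a median of -0.45. ATP5IF1, the inhibitor of the mitochondrial ATP synthase, had 18.6, 16.4, 2.28 and 29.01 CPM against 3093 and 1016 CPM (-6.94 ± 0.67, adjusted p = 2.37e-22, edgeR), with aorta 3 well below the rest, and moved to -5.97 without blood 1 and -7.54 without blood 3. The exception was COX4I2, a cytochrome oxidase subunit isoform, with 3.48, 2.38, 3.99 and 7.25 CPM in aorta and 2 counts in blood, a ratio of 14.4 with a counting interval of 3.74 to 123.04. It did not pass without blood 1 (2.90, adjusted p = 0.224, edgeR).

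The mitochondrial genome codes for 13 proteins of the respiratory chain and ATP synthase. All 13 had a fold change above 0, beside 54.7% of all genes, and 7 passed the test, with a median of 1.71. The count was 1 without aorta 1, 2 without aorta 2, 4 without aorta 3 and none without blood 3. ND5 and ND4, subunits of complex I, stood at 16453, 16324, 10990.1 and 10983 CPM and 10894, 9814, 7569 and 7609 CPM in aorta, against 2852 and 2023 CPM and 2820.4 and 1450.4 CPM in blood. Their log2 fold changes were 2.49 ± 0.82 and 2.07 ± 0.78 (adjusted p = 0.0106 and 0.0304, edgeR), and neither passed without aorta 1 (0.0505 and 0.110), blood 1 (0.0528 and 0.0556) or blood 3 (0.0689 and 0.154), nor ND4 without aorta 2 (0.0745). As a share of raw counts, free of the TMM scale, the 13 genes took 6.27% ± 1.52 (SD, n = 4) in aorta and 1.39% in each blood library. Every aorta library lay above both blood libraries, with p = 0.067 in the exact permutation test, the smallest it can give. The blood values of single mitochondrial genes were higher in blood 1 than in blood 3 for all 13 on the scaled level. The raw share of the 13 genes summed was the same to 3 digits in both. The TMM factors of these libraries were 0.637 and 1.23.

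Related genes, mostly of the cytoskeleton and of signalling, were listed in pairs, with 1 form for vessel or muscle and 1 for blood cells. Of 43 such pairs, 37 had both genes above the filter. The forms are named by the listing, which is not exclusive. RUNX1, ETS1, JAK1, STAT3 and PTPN11 stood as vessel forms and were all higher in blood. TEAD2 and MEF2C stood as blood forms, and neither passed. MEF2C was also listed above among the factors known from the vessel wall, so the 2 listings differ for it. No test was made over the pairs, whose forms were listed by tissue, so the counts are a description. The form listed for vessel was higher in aorta in 18 pairs and higher in blood in 9. The form listed for blood was higher in blood in 27 pairs and higher in aorta in 1. In 13 pairs both forms passed in opposite directions as listed, and in no pair were they the other way round. Of these 13 pairs, 8 still divided without blood 1, 10 without blood 3 and 11 or 12 without 1 aorta library. The pairs lost without blood 1 were MYO1C with MYO1F, MYL9 with MYL12A, GNA11 with GNA15, NFATC4 with NFATC2 and GATA6 with GATA3. The pair of NCKAP1 and NCKAP1L was lost in every leave-one-out fit except that without blood 1, and that of GNA11 and GNA15 in every one except that without aorta 2. Among the plastins, which bundle actin, PLS3 had 99.9, 129, 111.8 and 222 CPM in aorta against 2.37 and 3.03 CPM in blood (5.67 ± 0.68, adjusted p = 8.36e-15, edgeR), and LCP1 48.4, 45.3, 43.9 and 33.8 CPM against 1265 and 499 CPM (-4.36 ± 0.57, adjusted p = 1.56e-12, edgeR). Of the DOCK exchange factors for Rac, DOCK1 had 56.1, 38.7, 63.3 and 68.2 CPM against 5.94 and 5.30 CPM (3.32 ± 0.53, adjusted p = 1.03e-08, edgeR) and DOCK2 35.2, 21.98, 32.5 and 20.8 CPM against 886 and 356 CPM (-4.49 ± 0.55, adjusted p = 3.87e-14, edgeR). Both pairs held 1 form for each tissue with no overlap. The kindlins FERMT2 and FERMT3, which activate integrins, gave 3.78 and -2.78 (adjusted p = 5.82e-10 and 7.10e-09, edgeR).

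Further pairs that divided this way were the parvins PARVA (4.55) and PARVG (-1.96), the phospholipases PLCB4 (3.59) and PLCB2 (-3.46), the calponins CNN1 (8.06) and CNN2 (-2.85), and the proteins EPB41L2 (1.82) and EPB41 (-5.28). In 7 pairs both forms were higher in blood, among them the Janus kinases JAK1 (-3.17 ± 0.53, adjusted p = 3.35e-08, edgeR) and JAK3 (-1.87 ± 0.49, adjusted p = 9.39e-04, edgeR). Others of these pairs held less firmly. Without blood 1, PIK3CA moved from -1.39 to -0.58, PTPN11 from -1.24 to -0.63, STAT3 from -1.31 to -0.67 and S100A8 from -2.68 to -1.51. PTPN11 and STAT3 lost their calls without aorta 1, 2 or 3 (adjusted p between 0.0962 and 0.181, edgeR). The adducin listed for vessel, ADD3, was also higher in blood, at 36.00, 53.2, 46.8 and 49.3 CPM against 688 and 241 CPM (-3.32 ± 0.52, adjusted p = 4.75e-09, edgeR). Filamins were the pair with both forms higher in aorta: FLNC, the muscle filamin, had 358, 322, 474 and 964 CPM against 38.6 and 36.1 CPM (3.82 ± 0.71, adjusted p = 1.14e-06, edgeR), and FLNA, the broad form listed for blood, 7515, 6115, 8267 and 14434 CPM against 1319.7 and 543 CPM (3.29 ± 0.84, adjusted p = 6.00e-04, edgeR). Talins split in part, since TLN2 rose in aorta (4.16 ± 0.57, adjusted p = 1.59e-11, edgeR) while TLN1 overlapped between tissues (-0.25 ± 0.62, adjusted p = 0.800, edgeR). The regulatory light chains of myosin gave 1.94 for MYL9 and -2.08 for MYL12A, of which MYL9 did not pass without blood 3 (1.39, adjusted p = 0.111, edgeR) and MYL12A without blood 1 (-0.98, adjusted p = 0.219, edgeR).

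**Figure D4:**
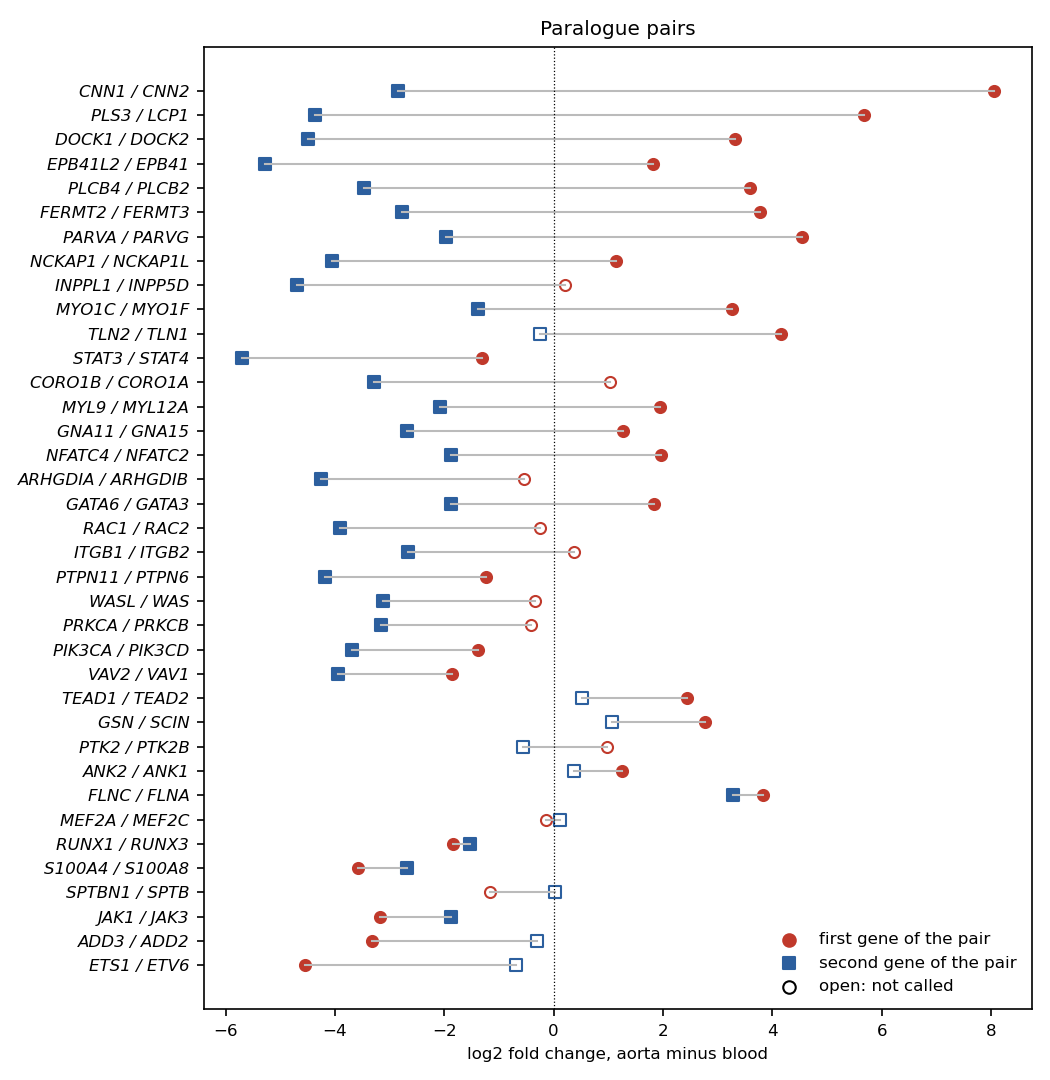
Fitted log2 fold change of aorta over blood for the 37 pairs of related genes, with the form listed for vessels (circle) joined to the form listed for blood (square), open where the gene was not called. The vessel form had the higher fold change in 30 of 37 pairs, and the 13 pairs called in opposite directions all ran as listed.

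Genes of the Y chromosome were among the leaders on the blood side. EIF1AY, a Y-linked translation factor gene (chromosome Y, 9687350 to 9704489), had no count in any of the 4 aorta libraries and 321 and 129 counts in blood 1 and 3, at least 217-fold lower in aorta against a floor of 3 counts. KDM5D, a Y-linked histone demethylase, had 1 count in aorta 2, none in the other aorta libraries, and 120 and 55 counts in blood. Both genes were also counted in the catheter samples of the blood donors: for pig 243K in 5 of 5 microbrush and 2 of 2 wire libraries, and for pig 248K in 4 of 5 microbrush libraries. In the wire libraries of pig 248K, EIF1AY was counted in 2 of 2 and KDM5D in 1 of 2. The data used here hold no aorta of pigs 243K or 248K and no blood of pig 237053, and the labels state no sex, so for these genes too tissue and animal cannot be told apart.

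**Figure D5:**
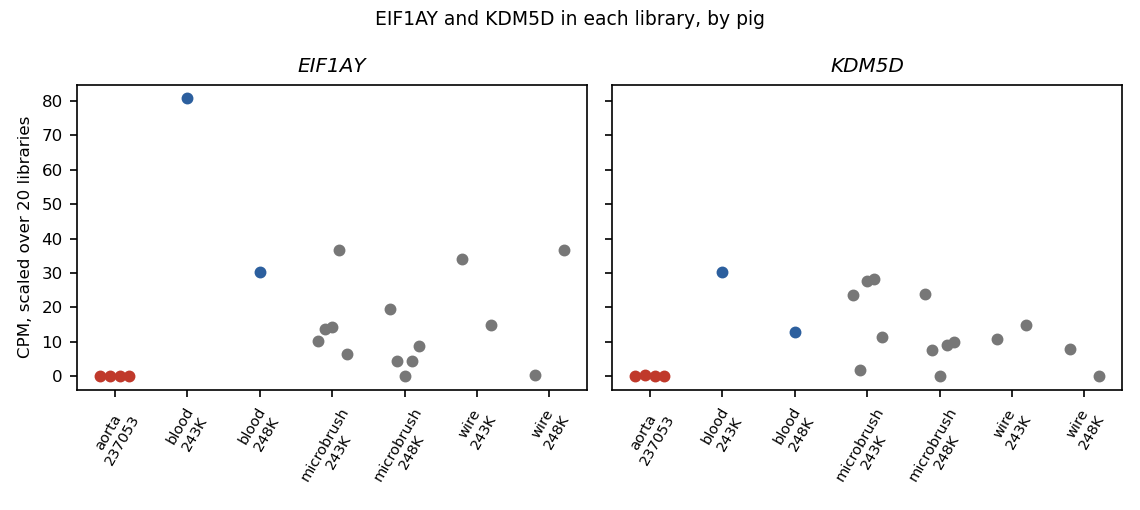
Level of the Y-linked genes EIF1AY and KDM5D in each library, grouped by sample type and pig (CPM on a linear axis, scaled over 20 libraries). The 4 aorta libraries of pig 237053 lie at or next to 0, while blood 1 and 3 and most microbrush and wire libraries of pigs 243K and 248K lie above.

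The spread among the aorta libraries was uneven. Among 2744 genes with a mean of at least 50 CPM in aorta, the median SD of log2 CPM over the 4 libraries was 0.385, against 0.814 for 36 ribosomal protein genes and 0.199 for 12 mitochondrially encoded genes. RPS3A varied most, at 77.03, 70.99, 13.1 and 148 CPM, and was still higher in blood (-3.27 ± 0.55, adjusted p = 5.99e-08, edgeR). HEPACAM, an adhesion molecule of glia, followed with 8289.6, 3773, 37303 and 9083 CPM in aorta and 6567 and 802 CPM in blood. It took 1.55% ± 1.69 (SD, n = 4) of raw aorta counts, beside 1.49% for ND5. Whether these counts come from HEPACAM messages was not tested. The ranges of HEPACAM overlapped, although the fit called it higher in aorta (1.99 ± 0.80, adjusted p = 0.0452, edgeR). The value rested on single libraries: it was 0.92 without aorta 3, 1.13 without blood 3 and 4.14 without blood 1 (adjusted p = 0.459, 0.343 and 0.00274, edgeR), and the call was lost without aorta 1 too (0.0832). TPT1, a growth-related protein translated like the ribosomal genes, had 211, 169.5, 72.99 and 526 CPM in aorta against 12464 and 4909 CPM in blood (-5.15 ± 0.69, adjusted p = 4.71e-12, edgeR).

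The blood libraries came from different pigs and differed from each other, with no test possible between 1 library and 1 library. Of 11597 genes with enough counts in the pair, 141 (1.22%) were more than 4-fold higher in blood 1 and 127 (1.1%) in blood 3, and the median log2 ratio of blood 1 over blood 3 was 0.55. Against that median, the platelet list stood at 1.65, interferon genes at 1.49 and ribosomal genes at 1.28, whereas HOX genes stood at -1.36 and proteoglycan genes at -1.18. Of the 8 genes named on the blood 1 side, 7 were small nucleolar RNAs and the other was HEPACAM. SNORA27 had 236 counts in blood 1 and 3 in blood 3, and SNORD17 179 and 24.5 CPM. SNORD17 was higher in aorta than in either (2.94 ± 0.70, adjusted p = 2.12e-04, edgeR), at 739, 524, 856 and 992 CPM. SNORD12B, called higher in blood (-1.33 ± 0.46, adjusted p = 0.0157, edgeR), lost its call without aorta 1 or aorta 4 (adjusted p = 0.0575 and 0.0558, edgeR) and turned to 1.5 without blood 1, the only named gene to change sign when a library was left out. Small nucleolar RNAs lie inside other genes, and reads of the 2 cannot always be told apart.

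Set on a common scale with the catheter libraries of the series, aorta and blood were not the outer bounds for every marker. MYH11 ranged from 200 to 75999 CPM in the 10 microbrush libraries and from 43.8 to 872 CPM in the 4 wire libraries, so that the wires all lay below the lowest aorta. HBB ranged from 149 to 5490 CPM on the brush and from 2049 to 33619 CPM on the wire, above the highest aorta library in every case. ELN spanned 165 to 11807 CPM on the brush and 0 to 1528 CPM on the wire, a wider range than within the aorta.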

How the data were processed

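RNA of 4 aorta and 2 blood samples was sequenced from SMARTer Pico libraries of total RNA, extracted by an RNAdvance Tissue protocol in small volumes, per the labels' protocols. Salmon, DESeq2 and the genome build Sscrofa11.1 are named in the submitters' processing notes, with no versions. The authors deposited one table of estimated counts per gene, in which 11.9% of values are not whole, and these were rounded. It holds 24358 genes, 14692 of them with a symbol, and the filterByExpr function with a minimum count of 10 kept 17082. Of the kept genes, 12319 were matched by symbol or identifier to RefSeq coordinates of Sscrofa11.1.

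Aorta and blood were compared with the quasi-likelihood test of edgeR 4.0.16 (R 4.3.3) on TMM-scaled libraries, with no covariate, and p-values were adjusted over all 17082 genes at a threshold of 0.05. The procedure was tested on simulated data, drawn with the same dispersion for every gene and the same expected level in each library of a tissue. Such data hold no difference between pigs. Single shares were compared by an exact two-sided permutation test over libraries. DESeq2 1.42.0, limma 3.58.1 (voom), other filters, scalings and thresholds and leaving out each library were tried as alternatives. Intervals are 95% intervals and cover counting error only. Depth ran from 1603209 to 5301283 counts.

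Named genes were the 12 with the largest change in each direction (at least 50 CPM in the higher tissue, no overlap), up to 5 per list, whole lists of up to 8 genes, the pairs of related genes, list members against their list, and the 8 most variable in aorta or, per direction, between the blood libraries. MYL6, SMTNL2, COL8A1, F9, ATF3, HSP90AB1 and HSPD1 were named after their values were seen. The 40 gene lists held 821 distinct genes, of which 710 were in the table and 678 passed the filter; the rest were not analysed here. Members and lists were chosen with earlier results of these data known. No sequence was used.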

Additional observations from a re-analysis of the deposited data

Results flagged for a closer look

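In 51 values checked over the 4 aorta libraries (library measures and the summed level of each list), 1 library stood apart from the other 3 in 6 by the 95% limit of Dixon's test, which chance passes about 1 time in 20. Aorta 4 accounted for 5 of them. Its elastic fibre sum was 8780 CPM, against 2976 to 3819 CPM in the others, and its sum of vessel wall cytokines and growth factors was 1705 CPM, against 995 to 1053 CPM. It was lowest for the red cell sum, at 395.5 CPM against 444 to 452 CPM, and for the T and NK cell sum, at 384 CPM against 586 to 627 CPM. Genes detected at 1000000 counts were also fewest in aorta 4, at 18594 against 18906 to 18960. In aorta 2 the sum of the 2 sex-linked genes was 0.265 CPM, from a single KDM5D count, against 0 in the others.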

How the results depend on the processing

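With 1677 genes higher in aorta and 3198 higher in blood as the reference, DESeq2 gave 1686 and 3008, relative log expression scaling 1651 and 3205, no filter 1566 and 3291, a minimum count of 50 1606 and 2666, and a threshold of 0.01 1176 and 2504. Limma voom gave 1012 higher in aorta and 2547 in blood, and a test against a 2-fold change (glmTreat) 893 and 1588. Adding blood 2 left 158 and 81 genes, and 1 fit of all groups in the series together left 8 and 89, with 1803 and 1351 genes at an unadjusted p under 0.05 (edgeR). The share of calls that were higher in aorta, 34.4%, became 66.1% with blood 2 and 8.25% in the fit of all groups. MYH11 (11.86, adjusted p = 0.0577, edgeR) and COL1A1 (7.89, 0.0981) did not pass with blood 2, nor COL1A1 (7.66, 0.101), DCN (5.73, 0.428) and STAT4 (-5.79, 0.150) in the fit of all groups. The cause was not tested.

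Leaving out 1 library at a time gave 1115 to 2691 genes higher in aorta and 1373 to 4299 higher in blood, the extremes being the fits without blood 1 and without blood 3. The difference in the share of the 4 haemoglobin genes ranged from -4.07 to -3.69 percentage points, and that in the mitochondrially encoded share from 4.36 to 5.49. With blood 2 added, which held 5633 counts, they were -2.58 and 4.86 (exact permutation p = 0.143 and 0.0286). The second p is the smallest that 4 against 3 libraries can give. The difference in genes detected ranged from 9.75 to 1381. Of 243 named genes called, 44 lost the call without blood 1, 11 without blood 3 and 13 to 23 without 1 aorta library. The fold change moved by more than 1.5 times for 64 of them without blood 3, and for more without blood 1. With 1 blood library left, it is assumed to vary like the aorta. No paired analysis was possible because the groups share no animal and the labels carry no replicate numbers. With 2 blood libraries, small differences were not detectable, and depth limits the lists of low genes.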

Other observations

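Blood 2, the third blood library and the second from pig 243K, held 5633 counts over 302 genes. It had no count for HBB, HBM, HBZ or HBQ1, in a library where 3 counts would equal 533 CPM. Its mitochondrially encoded share, 1.44%, lay near the 1.39% of the other blood libraries. A pair of gene identifiers with no symbol took 6.82% ± 1.52 (SD, n = 4) of aorta counts and 5.35% ± 1.44 (SD, n = 2) of blood counts (p = 0.333, exact permutation test, two-sided). In blood 2, which is not in that mean, the share of the pair was 0%.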
